A study of Rattus norvegicus with 6 samples.

Results

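The T cell receptor complex and its co-receptors were described here through 10 genes measured in the renal cortex of rats given carbon tetrachloride or corn oil. The genes are Cd3d, Cd3e, Cd3g and Cd247, which encode the signalling chains of the receptor complex, Cd4, Cd8a and Cd8b, which encode the co-receptors, and Cd2, Cd5 and Cd27, which encode other surface receptors of T cells. They are 10 of the 31193 transcripts tested. Probes were assigned to them by the accession in the array files, and 13 of the 61537 non-control probes matched. For Cd247, Cd4 and Cd8b, which had 2 probes each, the probe standing for the gene was selected on its mean log2 signal, the higher over the 6 arrays. The genes were chosen with earlier results of these data known, so their fitted values describe these rats and are no independent evidence of a direction.

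The study measured male Sprague-Dawley rats (Crl:CD(SD)), 5 weeks old at purchase. In the treated group 3 rats received carbon tetrachloride at 100 mg/kg/day for 4 weeks, and in the control group 3 rats received corn oil for 4 weeks. Carbon tetrachloride is a chlorinated solvent best known as a liver toxicant. The series' design text names another compound, benzyl acetate, while the title and every sample label name carbon tetrachloride, and the labels were followed. RNA of each rat was labelled with Cy3 and hybridised to 1 single-colour Agilent array, and precision is bounded by having 3 arrays in a group. Signals are given as log2 of the background-subtracted intensity relative to the 75th percentile of that array, so a value of 0 lies at the 75th percentile and negative values lie below it. Levels of different genes are not compared, because probes differ in brightness for the same amount of RNA.

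T cells recognise peptides on histocompatibility molecules through an antigen receptor that has no signalling tail of its own. The CD3 chains and the zeta chain carry the tyrosine motifs that the kinase LCK phosphorylates, and ZAP70 then binds them. CD8 binds class I and CD4 binds class II histocompatibility molecules beside the receptor, and each brings LCK to it. In the healthy kidney T cells are a small resident and patrolling population, and several of these genes are not restricted to them: in rats macrophages also carry CD4 and natural killer cells carry CD8 alpha, and in mice some B cells carry CD5. In whole cortex RNA, fewer cells of a type and less RNA per cell cannot be told apart.

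The upstream sequences of the 4 signalling chain genes are shown because these genes are the core of the complex. Each window runs from 250 bases before to 50 bases after the annotated start in RefSeq, build GRCr8, and is printed 5′ to 3′ on the strand of its gene. The windows lie as follows: Cd3g at chr8:54183869-54184168 on the minus strand, Cd3d at chr8:54185269-54185568 on the plus strand, Cd3e at chr8:54211721-54212020 on the minus strand and Cd247 at chr13:80576019-80576318 on the plus strand. Cd3g and Cd3d are neighbours transcribed away from each other, with 1100 bases between their windows, and Cd3e lies further along the same chromosome. Capitals mark AGGAAG or its complement CTTCCT, the core recognised by ETS factors, which act widely in blood cells.
Cd3g: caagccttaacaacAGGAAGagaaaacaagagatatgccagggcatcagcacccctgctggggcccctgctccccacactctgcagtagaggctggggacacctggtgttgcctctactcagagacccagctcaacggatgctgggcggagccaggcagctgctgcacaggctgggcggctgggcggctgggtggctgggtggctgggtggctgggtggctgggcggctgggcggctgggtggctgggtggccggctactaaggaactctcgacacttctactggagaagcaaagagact
Cd3d: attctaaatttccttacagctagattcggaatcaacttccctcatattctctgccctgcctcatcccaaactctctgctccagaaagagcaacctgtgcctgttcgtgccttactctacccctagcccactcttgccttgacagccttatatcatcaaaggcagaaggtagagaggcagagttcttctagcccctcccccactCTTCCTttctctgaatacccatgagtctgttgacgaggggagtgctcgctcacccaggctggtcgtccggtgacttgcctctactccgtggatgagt
Cd3e: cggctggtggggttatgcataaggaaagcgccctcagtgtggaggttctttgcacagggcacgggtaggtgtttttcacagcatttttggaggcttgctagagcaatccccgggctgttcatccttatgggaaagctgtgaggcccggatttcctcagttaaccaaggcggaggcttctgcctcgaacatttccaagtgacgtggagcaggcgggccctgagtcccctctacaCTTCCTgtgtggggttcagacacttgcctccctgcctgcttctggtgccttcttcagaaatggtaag
Cd247: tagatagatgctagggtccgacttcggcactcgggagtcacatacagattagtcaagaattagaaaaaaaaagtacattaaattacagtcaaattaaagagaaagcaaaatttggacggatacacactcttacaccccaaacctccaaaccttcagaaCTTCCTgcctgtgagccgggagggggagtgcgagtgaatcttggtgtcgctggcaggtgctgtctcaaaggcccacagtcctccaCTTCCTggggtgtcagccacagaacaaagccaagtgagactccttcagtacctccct
The table held windows for 8 of the 10 genes. AGGAAG on either strand was found in 5 of these 8 windows (those above and that of Cd5), against 34.5% of 33469 windows of the same length. TGTGGT, the core recognised by RUNX factors, was searched on both strands and found in 1 of the 8 windows, that of Cd2, against 17.3% of all windows. The TATA box letters TATAAA, also searched on both strands, were in 0 of the 8 windows, against 14.2% of all windows. The motifs did not overlap in these windows, and their letters were chosen after the sequences had been seen.

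Signals of all 10 genes were lower after carbon tetrachloride than after corn oil, where 47.7% of all transcripts were lower. For 9 of the 10 genes the 3 treated values lay below the 3 control values without overlap. Such separation in the lower direction was seen for 5.27% of all tested transcripts. The median log2 fold change of the 10 genes was -0.99, against 0.0077 over all transcripts. With normexp, a background correction whose offset draws dim values together, the median of the 10 was -0.38, and the values of Cd3e, Cd8a, Cd2, Cd5 and Cd27 were -0.27, -0.31, -0.33, -0.15 and -0.64. Cd4 was the exception, with a log2 fold change of -0.11. No gene of the set passed the test: 0 of 10 had an adjusted p under 0.05 in limma (Benjamini-Hochberg over all transcripts), where the share of all transcripts called in this direction was 0%, and 1 transcript (0.00321%) was called in either direction. At an unadjusted limma p under 0.05, 9 of the 10 were lower, against 2.63% of all transcripts. In either direction 6.3% of all transcripts had such a p. A fitted log2 fold change of -0.5 or lower was found for 9 of the 10 genes, against 2.59% of all transcripts. The test took only probes that exceeded background clearly on the 3 arrays of 1 group or of both. Of the 10 genes, 7 met this on all 6 arrays, while Cd2, Cd3e and Cd5 passed through the corn oil group, where they were brighter. Among the 7, 6 separated without overlap, where the share of all transcripts bright on all 6 arrays was 5.1%, and 6 had a log2 fold change of -0.5 or lower, against 1.8% of those transcripts. Their median log2 fold change was -0.79.

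**Figure D1:**
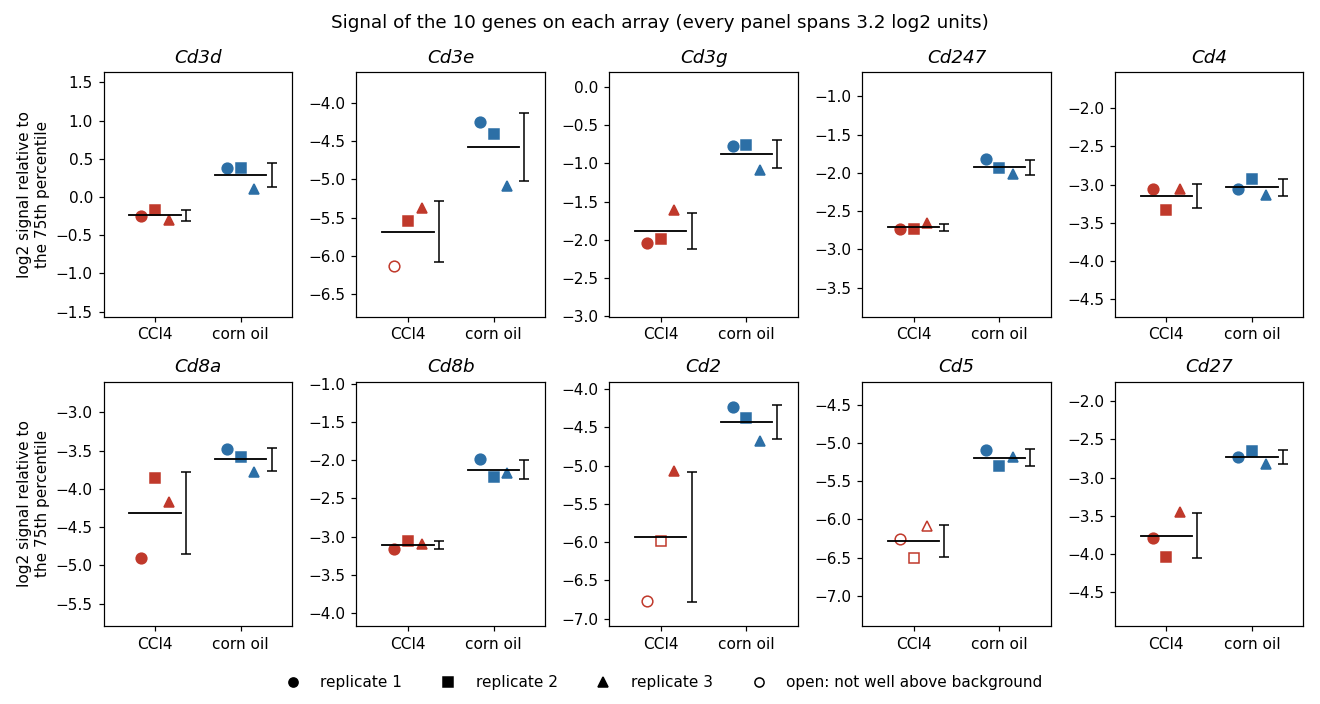
Signal of each of the 10 genes on each array, as log2 relative to the array's 75th percentile, with carbon tetrachloride left of corn oil; marker shapes give the replicate, horizontal lines the group mean, side bars the SD (n = 3), and open markers spots not well above background. The groups are apart in every panel except that of Cd4, and the scatter among treated rats is widest for Cd2, with an SD of 0.85.

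Among the CD3 chains, Cd3g, which encodes the gamma chain, had log2 signals of -2.04, -1.99 and -1.61 on the treated arrays, against -0.78, -0.76 and -1.09 on the corn oil arrays. The treated rats were all lower, with a gap of 0.53 between the highest treated and the lowest control value. The fitted log2 fold change was -1.01 ± 0.15 (SE, n = 3 per group), which is 2.01-fold lower, with an adjusted p of 0.627 in limma. Cd3d, the delta chain gene, had -0.25, -0.17 and -0.31 on the treated arrays, against 0.38, 0.38 and 0.10 on the corn oil arrays. Its difference was smaller, at -0.53 ± 0.10 (SE), and again every treated value lay below every control value. The adjusted limma p of Cd3d was 0.689. The difference of Cd3g minus Cd3d within an array was -1.79, -1.83 and -1.31 after carbon tetrachloride, against -1.15, -1.14 and -1.19 after corn oil, a change of -0.48 between the groups. The pair was picked after its values were seen and the difference was not tested.

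Cd3e, the epsilon chain gene, had -6.14, -5.55 and -5.37 on the treated arrays, against -4.25, -4.40 and -5.08 on the corn oil arrays. It exceeded background clearly on 2 treated arrays and on the 3 corn oil arrays, so the dimmest treated value is close to the limit of measurement. The fitted log2 fold change was -1.11 ± 0.29 (SE), with an adjusted p of 0.749 in limma. Cd247, which encodes the zeta chain with the most tyrosine motifs of the complex, had -2.74, -2.74 and -2.66 on the treated arrays, against -1.82, -1.94 and -2.01 on the corn oil arrays. Its replicates lay close together, with SDs of 0.045 after carbon tetrachloride and 0.098 after corn oil. The fitted log2 fold change was -0.79 ± 0.08 (SE), 1.73-fold lower, with an adjusted p of 0.215 in limma. By unadjusted p Cd247 ranked 8th among all transcripts. The other Cd247 probe was not well above background on any array and has no interpretable value.

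The CD8 genes differed in how their replicates spread. Cd8b, the beta chain gene found in T cells that carry the alpha and beta form, had -3.16, -3.06 and -3.09 on the treated arrays, against -1.98, -2.22 and -2.17 on the corn oil arrays. The gap between the groups was 0.84, the widest of the 10 genes, and the log2 fold change was -0.98 ± 0.09 (SE), with a 95% interval from -1.19 to -0.77. Its adjusted limma p of 0.187 was the smallest of the set, and by unadjusted p it ranked 5th of all transcripts. The dimmer Cd8b probe also separated the groups, with -4.17, -4.00 and -4.24 against -3.52, -3.64 and -3.70. Fitted probe by probe, it had a smaller log2 fold change of -0.51 ± 0.09 (SE), with an adjusted limma p of 0.637 over 42400 probes. Cd8a, the alpha chain gene, had -4.91, -3.86 and -4.17 on the treated arrays, against -3.48, -3.58 and -3.78 on the corn oil arrays. The gap between groups was only 0.084, and the treated values spread over a range wider than the difference of the means. Its log2 fold change was -0.70 ± 0.27 (SE), with an adjusted p of 0.791 in limma.

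Cd4, the co-receptor for class II molecules, did not separate the groups. The probe of higher mean had -3.06, -3.33 and -3.05 on the treated arrays, against -3.06, -2.92 and -3.14 on the corn oil arrays, and a log2 fold change of -0.11 ± 0.11 (SE) with a 95% interval from -0.37 to 0.16 (limma, adjusted p = 0.866). The dimmer Cd4 probe had -5.73, -5.87 and -5.19 against -5.38, -5.11 and -4.70, was well above background on 1 treated and 3 corn oil arrays, and also overlapped. Its difference was larger, at -0.54 ± 0.24 (SE), with an adjusted p of 0.788 in limma over the same probes, so the size given for Cd4 depends on the probe. The difference between Cd8b and Cd4 within an array was -0.10, 0.27 and -0.04 after carbon tetrachloride, against 1.07, 0.70 and 0.97 after corn oil, a change of -0.87 that scaling each array by a constant leaves as it is. The size depends on the probes: the change was -0.41 with the dimmer Cd8b probe, -0.44 with the dimmer Cd4 probe and 0.02 with the dimmer probe of both. This pair too was picked after its values were seen, and no test is given.

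**Figure D2:**
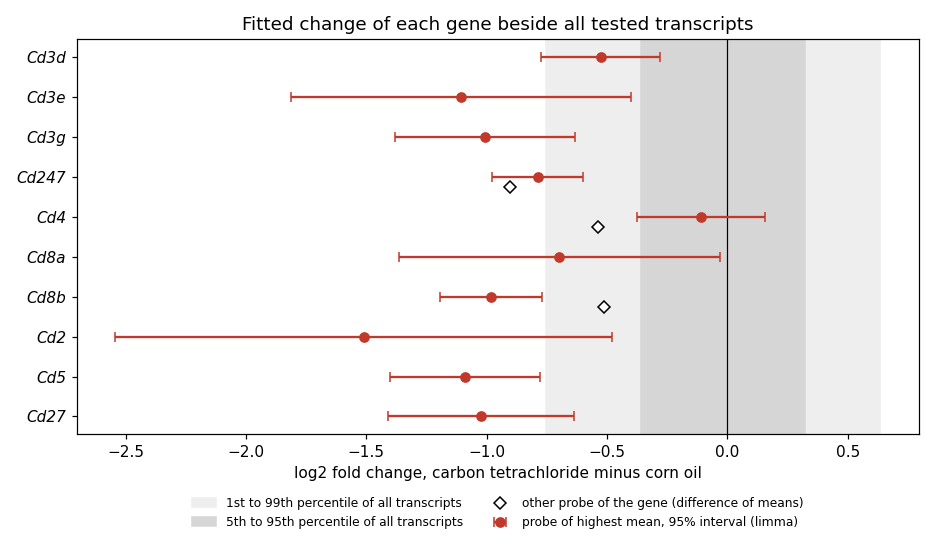
Fitted log2 fold change of each gene (carbon tetrachloride minus corn oil) with its 95% interval from limma; open diamonds give the difference of means for the other probe of Cd247, Cd4 and Cd8b, the first of which was not well above background. Bands show the 1st to 99th and 5th to 95th percentile of the fitted change over all tested transcripts, and 7 genes lie left of the 1st percentile at -0.76.

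Of the remaining surface receptors, Cd27, a co-stimulatory receptor of the tumour necrosis factor receptor family, had -3.78, -4.04 and -3.45 on the treated arrays, against -2.73, -2.65 and -2.83 on the corn oil arrays. The groups lay 0.62 apart at their nearest values. The log2 fold change was -1.02 ± 0.16 (SE), 2.03-fold lower, with an adjusted limma p of 0.627. Cd5, which dampens signals of the antigen receptor, stayed near background on the treated arrays, where 0 of 3 spots were well above it, at -6.25, -6.51 and -6.09, against -5.09, -5.30 and -5.18 on the corn oil arrays, where it was well above background on all 3. Taking the higher of its own value and the dimmest value well above background on each treated array, Cd5 was 1.73-fold lower. This is no firm bound, because its log2 fold change with normexp was -0.15. Its adjusted limma p was 0.298. Cd2, an adhesion receptor that binds CD48 in rodents, had -6.77, -5.99 and -5.07 on the treated arrays, against -4.23, -4.38 and -4.67 on the corn oil arrays. It was well above background on 1 treated array, and its 3 treated values differed from each other more than those of any other gene of the set. The fitted log2 fold change was -1.51 ± 0.42 (SE), with an adjusted limma p of 0.756. The value with normexp was -0.33. Because 2 of the 3 treated values were not well above background, the size of the difference is poorly measured.

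The size of the difference varied between rats in a way shared by most of the genes. Relative to the corn oil mean of each gene, the median of the 10 was -1.05, -0.95 and -0.73 on treated arrays 1, 2 and 3, and 0.10, 0.07 and -0.13 on corn oil arrays 1, 2 and 3. Treated replicate 1 had the lowest treated value for 6 genes and treated replicate 3 the highest for 7. Corn oil replicate 3 had the lowest control value for 8 genes. Treated replicate 3 was on slide 2 and scanned apart, while the other 5 arrays shared slide 1 and its scan. Within slide 1 the median log2 fold change was -1.06, and the values were -0.49 for Cd3d, -1.26 for Cd3e, -1.14 for Cd3g, -0.81 for Cd247, -0.16 for Cd4, -0.77 for Cd8a, -0.99 for Cd8b, -1.95 for Cd2, -1.19 for Cd5 and -1.18 for Cd27. Apart from Cd3d, none was nearer to 0 than over all 6 arrays, and 0 passed an adjusted p of 0.05 in limma, with 8 lower at an unadjusted p under 0.05, against 2.78% of all transcripts in the same fit. On slide 1 the corn oil arrays lay in row 1 and the treated arrays in row 2, so row and group cannot be told apart there. Treated replicate 3 lay in row 1 but alone on slide 2, so its median of -0.73 cannot separate row from slide or scan. The part of row was not tested.

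**Figure D3:**
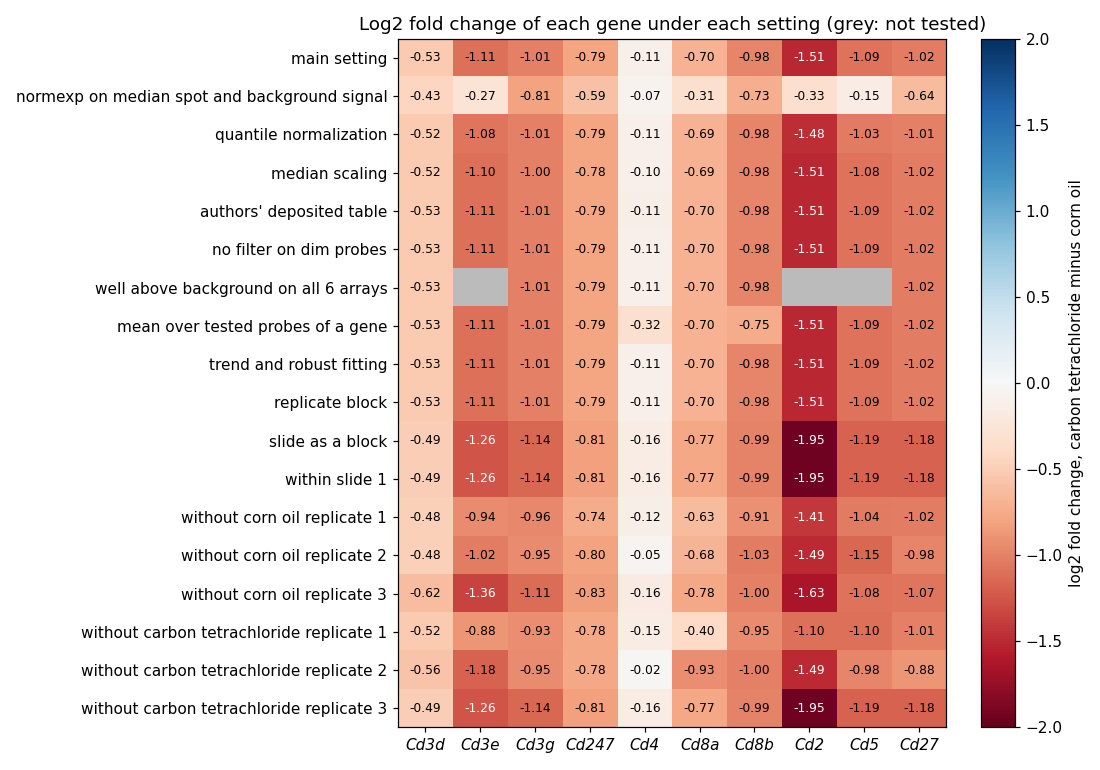
Log2 fold change (carbon tetrachloride minus corn oil) of each gene under each processing setting and without each array, printed and coloured in each cell; grey cells were not tested. All cells are negative, and the row for normexp has the values nearest to 0 for the dim genes Cd3e, Cd2 and Cd5.

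The tissue and the rest of the receptor pathway were examined through lists of genes. All 11 renal cortex markers, such as the endocytic receptor gene Lrp2 and the loop of Henle gene Umod, were well above background on all 6 arrays, and their median log2 fold change was 0.04. The thymus genes Rag1 and Rag2 were not well above background on any array, and Cd1d1, the 1 thymus list gene tested, had a log2 fold change of -0.14 ± 0.09 (SE). No probe was matched to a constant region gene of the T cell receptor under the symbols searched, so the antigen-binding chains were not analysed here.

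Among genes of signalling close to the receptor, regulators such as Ptprc and Csk included, 13 of 18 tested were lower and 5 higher. Their median log2 fold change was -0.12, and 47.7% of all transcripts were lower. None passed the adjusted threshold in limma, while 5 were lower and 0 higher at an unadjusted p under 0.05, where 2.63% of all transcripts were lower. The smallest p-values belonged to Sh2d2a, an adaptor that binds LCK, at -0.49 ± 0.11 (SE), and Zap70, the kinase that docks on the phosphorylated chains, at -0.55 ± 0.15. Lat, the membrane scaffold that ZAP70 phosphorylates, had -0.65 ± 0.19, and Lck, the kinase that starts the signal, -0.59 ± 0.18. The treated and control values of these 4 genes, named for their small p, did not overlap. In the whole list 5 of 18 genes were lower without overlap, against 5.27% of all transcripts. Zap70, for example, had -1.98, -1.99 and -1.72 after carbon tetrachloride, against -1.36, -1.09 and -1.58 after corn oil.

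Of 11 tested co-stimulatory and inhibitory receptors and their adaptors, 7 were lower and 4 higher, with a median of -0.25, where 47.7% of all transcripts were lower. In limma 0 passed the threshold and 1 was lower at an unadjusted p under 0.05, against 2.63% of all transcripts. Sh2d1a, the adaptor of SLAM receptors, had -0.33 ± 0.11 (SE) and the co-stimulator gene Icos -0.39 ± 0.19. The inhibitory receptor gene Pdcd1 had 0.64 ± 0.32 and the co-stimulatory receptor gene Tnfrsf9 0.33 ± 0.19, both higher but with overlapping groups. Pdcd1 passed the filter through the treated group, being well above background on 3 treated and 2 corn oil arrays. Cd28 and Cd40lg were among 6 genes of this list that were not well above background on any array. Among ligands and partners of the co-receptors, 9 of 10 tested were lower with a median of -0.23, where 47.7% of all transcripts were lower. The class II genes RT1-Da and RT1-Db1 had -0.60 ± 0.14 and -0.72 ± 0.26, and Cd74, the class II invariant chain, -0.41 ± 0.16. In limma 0 of the 10 passed the threshold and 3 were lower at an unadjusted p under 0.05, against 2.63% of all transcripts. RT1 genes are close paralogues and their probes may share target. For RT1-Db1, 4 of 5 tested probes were lower. Cd70 and RT1-Ba were not well above background on any array. Il16, whose product binds CD4, had -0.25 ± 0.13, and the class I light chain gene B2m had -0.04 ± 0.08.

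T cell transcription factors showed no common direction, with 3 of 9 lower, 6 higher and a median of 0.02, and none passed in limma at an adjusted or at an unadjusted p of 0.05. Foxp3, the factor of regulatory T cells, had -0.95 ± 0.62 (SE), which rests on 1 corn oil array: its values were -4.23, -4.03 and -4.79 after carbon tetrachloride, against -1.98, -4.32 and -3.90 after corn oil. Runx3 had 0.13 ± 0.09, Tox 0.14 ± 0.11 and Ets1 -0.13 ± 0.14. Of 10 homing and cytokine receptors, 8 were lower and 2 higher, with a median of -0.23, where 47.7% of all transcripts were lower. In limma 0 passed and 1 was lower at an unadjusted p under 0.05, against 2.63% of all transcripts. Il7r, the receptor for the T cell survival cytokine interleukin-7, had -0.26 ± 0.14 (SE), Cxcr6 -0.71 ± 0.43 and Ccr6 -0.38 ± 0.28, each with overlapping groups. Cxcr6 passed the filter through the corn oil group, being well above background on 2 treated and 3 corn oil arrays.

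**Figure D4:**
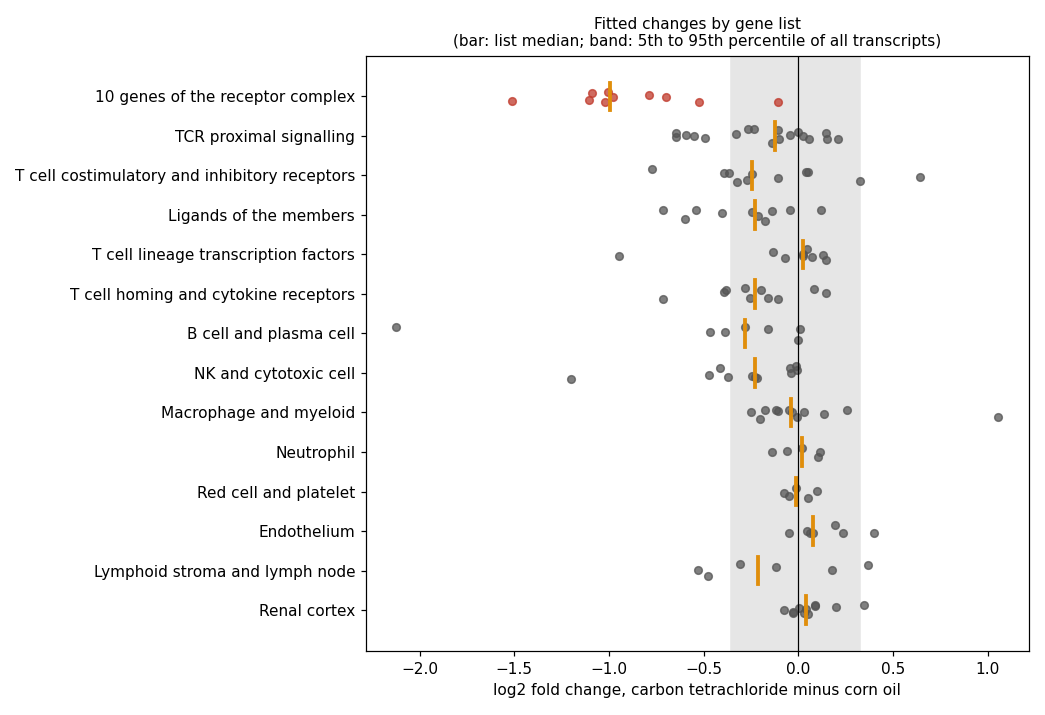
Fitted log2 fold change (carbon tetrachloride minus corn oil) of every tested gene, by list, with the list median as a bar and the 5th to 95th percentile of all transcripts as a band; vertical scatter within a row only separates the points. The receptor complex genes have a median of -0.99, and the medians of the other lists run from -0.28 for B and plasma cells to 0.08 for endothelium.

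Markers of other cells were read alongside, and their part in the result was not tested. All 11 tested natural killer and cytotoxic cell genes were lower, where 47.7% of all transcripts were lower. The median log2 fold change was -0.23, but Klrk1, Klrb1a and Gzmb lay near 0, at -0.01, -0.04 and -0.04. Of the tested probes, 2 of 3 were lower for Gzmb and 1 of 2 for Klrb1c. Of the 11 genes, 4 separated without overlap, against 5.27% of all transcripts. In limma 0 passed the threshold and 5 had an unadjusted p under 0.05, against 2.63% of all transcripts in this direction. Their summed signal, in percent of each array's 75th percentile, ran from 289 to 333 after carbon tetrachloride and from 342 to 373 after corn oil. Here and in the lists below, such sums are weighted towards the brightest probes. These were Klrk1 and Nkg7 here, Pax5 for B cells, Lyz2 for macrophages, and Hba-a1 and Hbb for red cells. Klrd1, which encodes the receptor chain CD94, had -0.47 ± 0.10 (SE) and the protease gene Ctsw -1.20 ± 0.29, while the granzyme gene Gzma had -0.0076 ± 0.35. Klrb1 was not well above background on any array. Of 7 tested B and plasma cell genes 6 were lower, with a median of -0.28, where 47.7% of all transcripts were lower. Cd22, counted as lower, had -0.0029. In limma 0 of the 7 passed the threshold and 1 was lower at an unadjusted p under 0.05, against 2.63% of all transcripts. The summed signal of these B and plasma cell genes ran from 163 to 239 after carbon tetrachloride and from 207 to 266 after corn oil. Tnfrsf17, a plasma cell receptor, passed the filter through the corn oil group, being well above background on 0 treated and 3 corn oil arrays. By the rule used for Cd5, which gives no firm bound, it was 1.69-fold lower. Pax5, a B cell transcription factor, had -0.39 ± 0.20. Blk was not well above background on any array.

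The summed signal of the macrophage and myeloid genes overlapped between groups, from 9454 to 10706 after carbon tetrachloride and from 9114 to 12948 after corn oil. Of 12 tested, 8 were lower and 4 higher, with a median of -0.04. Itgam, well above background on 2 corn oil arrays, had -3.24, -5.20 and -5.14 after carbon tetrachloride, against -6.34, -4.82 and -5.58 after corn oil, so its log2 fold change of 1.06 ± 0.64 (SE) leans on treated replicate 1 and the groups overlapped. Aif1 had -0.25 ± 0.16, and Csf1r, the receptor that macrophages need to survive, -0.0053 ± 0.11. Medians were 0.02 for 5 neutrophil genes, where the summed signal ran from 137 to 195 after carbon tetrachloride and from 157 to 169 after corn oil, and -0.01 for 5 red cell and platelet genes, at 36325 to 73010 and 46611 to 65664. Endothelial genes had a median of 0.08 and 6 of 7 were higher, where 16301 of all 31193 transcripts were higher. Nos3 had 0.40 ± 0.07 and Tek 0.23 ± 0.08. In limma 0 of the 7 passed the threshold and 2 were higher at an unadjusted p under 0.05, against 1144 of the 31193 transcripts. For 6 genes of lymphoid stroma and lymph node the median was -0.21, with summed signals from 495 to 566 after carbon tetrachloride and from 430 to 800 after corn oil. The node markers Cr2 and Madcam1 were not well above background on any array. Ltb, a lymphotoxin gene that T cells also express, had -0.48 ± 0.15, and Ccl19, a chemokine of T cell zones, -0.53 ± 0.28.

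The genes whose pattern over the 6 arrays was most like that of the receptor complex were found by the root mean square difference from the median profile of the 7 genes bright on all arrays, among 11992 other named genes that were bright on all arrays. The 8 nearest were Fat3 at 0.11 log2 units, Cxcl12 at 0.16, Col26a1 and Adam19 at 0.18, Camkv at 0.20, and Ptprcap, Clec9a and Art2b at 0.22. Their log2 fold changes ran from -0.99 for Col26a1 to -0.59 for Clec9a, and none had an adjusted limma p under 0.05. The likeness rests on 6 arrays and mostly reflects the difference between the groups, on which these genes were in effect chosen, so no test is given.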

How the data were processed

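Single-colour arrays of renal cortex RNA from 6 rats were analysed, 3 for each group. Spot intensity was deposited by the authors as extracted with Agilent Feature Extraction 10.7.1.1, per the file headers (10.7 per the submitters' processing notes). The authors' deposited value table, also linear intensity, holds the processed signal over a constant for each array (1015 to 1092). Its medians were 0.116, 0.115 and 0.111 for carbon tetrachloride replicates 1 to 3 and 0.118, 0.111 and 0.114 for corn oil replicates 1 to 3. Scale and centring follow from that comparison, and its direction was the same.

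Processed signals were set relative to each array's 75th percentile on the log2 scale. The 1439 control spots and the outlier spots, between 0 and 25 per array, were left out. Between 68.5% and 72.1% of probes were well above background on an array. Accessions were matched without version to RefSeq genes of GRCr8, used for names, which named 28206 probes (45.8%). Each gene was represented by its tested probe of highest mean. Differences were estimated by lmFit and eBayes from limma 3.58.1 (R 4.3.3, two-sided tests) over 31193 transcripts with Benjamini-Hochberg adjustment. Replicates are separate rats by the design text. The script was tested on simulated data.

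The 10 genes and the 15 lists were chosen with earlier results of these data known. The lists hold 192 entries, of which 155 matched a probe and 123 were tested. Besides the 10 genes, the text names up to 4 genes of smallest p in each pathway list, up to 2 in each list of other cell types with the members listed first, and the 8 genes of most like profile. Other genes, named outside this rule, were chosen after their values were seen. These were B2m, Cd22, Gzma, Gzmb, Klrb1a, Klrb1c, Klrk1, Umod and those not well above background on any array. Some genes that this rule names are not reported here. Alternatives were other background corrections, scalings, filters and probe rules, the deposited table, another variance model, blocking on replicate number or on slide, slide 1 alone, and leaving out each array.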

Additional observations from a re-analysis of the deposited data

How the results depend on the processing

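All 10 genes stayed lower after carbon tetrachloride under each of the 17 alternatives in which they were tested, and 0 of them had an adjusted limma p under 0.05 in any of these fits. The alternatives are not independent. Blocking on slide, slide 1 alone and leaving out carbon tetrachloride replicate 3 gave identical values. The trend and robust fit, the replicate block and the fit without a filter returned the fold changes of the reported fit. At an unadjusted p under 0.05 there were 8 or 9 genes in each fit with all 10, and 6 of 7 where a probe had to be bright on all 6 arrays, while the share of all transcripts lower at that p ran from 1.72% to 3.4% over these fits. The median log2 fold change, -0.99 over all 6 arrays, was -0.38 with normexp applied to median signals of spot and background, whose added offset of 50 draws dim values together, and -0.79 with only the 7 genes bright on all arrays. Without single arrays it ran from -1.06 to -0.91. The median change of all transcripts stayed between -0.01 and 0.02, and the number of transcripts called in all, 1 in the reported fit, was 0, 1 or 2. Over transcripts, deviations of same-numbered rats from their group means had correlations of -0.02, -0.10 and -0.08. Deviations within such small groups constrain each other, so these values cannot decide whether the numbers pair rats. With the replicate number as a block the median was -0.99, 8 genes had an unadjusted p under 0.05 and the smallest adjusted p of the 10 was 0.821. The values of Cd3e, Cd2 and Cd5, near the background on treated arrays, were -0.27, -0.33 and -0.15 with normexp, so their size is limited by signal over background. The figure for Cd4 was -0.32 with the mean of its probes. Cd8a had -0.40 without carbon tetrachloride replicate 1 and -0.93 without carbon tetrachloride replicate 2, and Cd2 had -1.10 without carbon tetrachloride replicate 1 and -1.95 without carbon tetrachloride replicate 3.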
